A study of Drosophila melanogaster with 6 samples.

Results

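Cytoplasmic ribosomal proteins (RPs) are the structural proteins of the ribosome, which in Drosophila, as in other animals, joins a large subunit (RpL proteins and the stalk proteins RpLP0, RpLP1 and RpLP2) to a small subunit (RpS proteins). The large subunit forms peptide bonds, the small subunit reads the messenger RNA, and the stalk recruits the elongation factors. RP genes are among the most strongly transcribed genes of growing larvae, and flies with 1 damaged copy of many of them show the Minute phenotype of slow development and thin bristles. Several RPs have a second gene copy, which in flies is often expressed mainly in the gonads.

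The 40 genes described here carry a symbol that starts with RpL, RpS or RpLP followed by a digit. RpL5, RpL15, RpL38 and RpS3A were left out by the rule, and each gene was read from the probe set that names it alone and has the highest mean over the 6 arrays. They are 40 of the 11983 genes with such a probe set. Release 6 of the Drosophila genome annotation holds 88 symbols of the same form without those 4, so the other genes of the family were not analysed here. By name, 24 of the 40 belong to the large subunit and 16 to the small subunit. By role, 18 are core large-subunit genes, 11 are core small-subunit genes, 8 are second copies of an RP gene (RpL10Aa, RpL22-like, RpL37-2, RpS5b, RpS10a, RpS19b, RpS28-like and RpS28a) and 3 are relatives of RPs known, mainly from yeast, as factors of ribosome assembly (RpL7-like, RpL24-like and RpLP0-like). The genes lie scattered over the genome, with 9 on arm 2L, 10 on 2R, 4 on 3L, 14 on 3R and 3 on X.

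RNA came from whole 1st instar larvae that were frozen about 48 after egg laying (the labels give no unit), with 200 larvae on each array and rearing at 25 °C. The 3 mutant arrays had the genotype dKDM4A KG04636 / ∆dKDM4A, with KG04636 on 1 chromosome and the allele written ∆dKDM4A on the other. Kdm4A codes for an enzyme that removes methyl groups from histones. The 3 control arrays had the genotype dKDM4A precise KG06436 / dKDM4A precise NP0618. They are titled as wild type. The labels give 1 genotype for each group, so the effect of the mutation and that of the chromosomes it sits on cannot be told apart. Whether the near-identical numbers KG04636 and KG06436 name the same insertion is not settled by the labels. The arrays of each group are numbered 1, 2 and 3 as biological replicates. In the plain comparison of mutant with control, p-values measure the spread between these pools of larvae. In fits that hold both genotype and replicate number, they measure only the spread left after both.

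Values are log2 expression values, so that a difference of 1 is a 2-fold change, and a probe set's level depends on its probes as well as on the transcript. Kdm4A was read at 3.44, 3.41 and 3.29 in the mutant arrays, against 5.18, 5.26 and 5.46 in the control arrays, a difference of -1.92 (limma, adjusted p = 0.00174). Array medians lay between 5.30 and 5.38. The markers elav of neurons, Tm2 of muscle, Jon65Aiv of the gut and Apoltp of the fat body lay above these medians in all arrays. Not all markers did: values reached down to 5.02 among 7 measured neuron markers and to 3.84 among 4 measured fat body markers. Measured muscle and gut markers went no lower than 9.91 and 12.96. In whole larvae, fewer cells of a type and less RNA per cell cannot be told apart. The 2 arrays numbered 1 stood apart in the gap between the 3′ and 5′ probe sets of the actin control, a measure of RNA integrity and labelling. The gap was 2.39, 1.53 and 1.63 in mutant arrays 1, 2 and 3, and 2.34, 1.84 and 1.61 in control arrays 1, 2 and 3.

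The core RP genes were read near the top of the array's range in every larval sample and hardly moved between arrays. Of the 29 core genes, 28 had a mean of at least 13 and stayed above the 99th percentile of all genes in all 6 arrays. In all, 146 genes had a mean of at least 13. The exception was RpL34a, a large-subunit gene, at 12.47, 12.54 and 12.45 in mutant arrays and 12.47, 12.54 and 12.51 in control arrays. RpL41, which codes for a very short large-subunit protein, was read at 14.48, 14.45 and 14.46 in mutant arrays and at 14.50, 14.39 and 14.53 in control arrays.

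**Figure D1:**
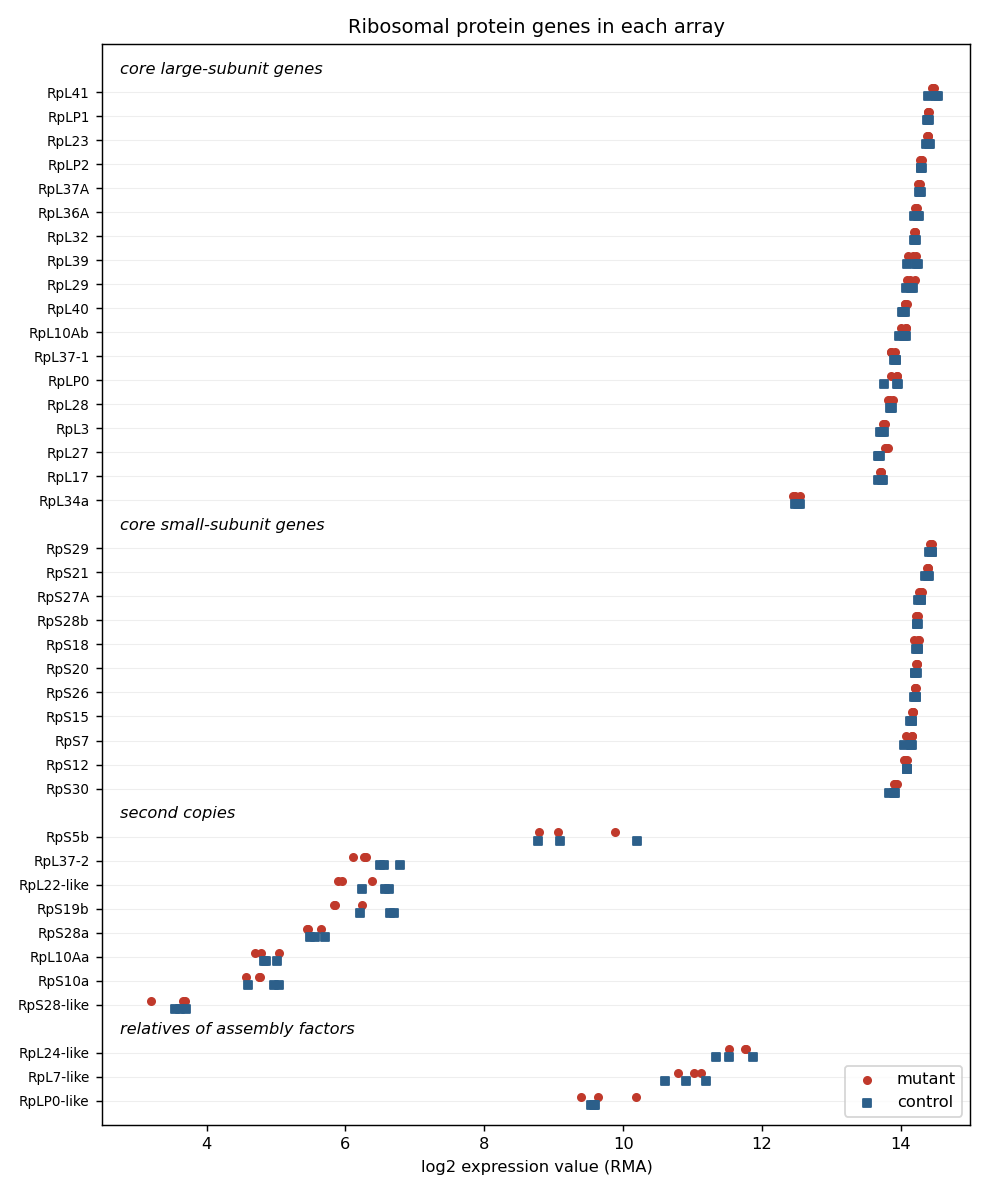
Log2 expression value (RMA) of each of the 40 RP genes in each array, with mutant arrays and control arrays marked apart and genes grouped by role. The core genes sit together near the top of the scale, between 12.45 and 14.53, with arrays on top of each other, whereas second copies reach down to 3.20 and spread more.

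Among large-subunit genes, the stalk genes showed both ends of this steadiness. RpLP1 was read at 14.39, 14.39 and 14.40 in mutant arrays and at 14.38, 14.39 and 14.41 in control arrays. Its range over the 6 arrays, 0.027, was the narrowest of the core genes. RpLP2 had a range of 0.03 as well. RpLP0, the stalk's anchor on the ribosome, had the widest range of the core genes, at 0.21. It was read at 13.85, 13.94 and 13.94 in mutant arrays and 13.75, 13.94 and 13.96 in control arrays, so both arrays numbered 1 were the lowest. RpL32, whose transcript is often used as a loading reference in fly work, was read at 14.20, 14.21 and 14.19 in mutant arrays and 14.20, 14.19 and 14.22 in control arrays. For 21 of the 29 core genes the 6 arrays lay within 0.1. RpL40 and RpS27A code for ribosomal proteins made as fusions to ubiquitin, and these genes were as steady, with ranges of 0.06 and 0.05.

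Core small-subunit genes were alike in this. RpS20 was read at 14.23, 14.22 and 14.23 in mutant arrays and at 14.20, 14.21 and 14.23 in control arrays. RpS29 had a range of 0.04 and RpS28b one of 0.03. RpS30, made as a fusion to a ubiquitin-like protein, and RpS7 were the widest of the 11, with ranges of 0.12 and 0.11, and in both the 2 arrays numbered 1 were the lowest.

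The spread within genotypes can be set beside that of other genes. The median residual SD, the spread left after the 2 group means, was 0.02 over the 28 core genes with a mean of at least 13, 0.10 over the 118 other genes with such a mean, and 0.15 over all genes. All 29 core genes lay under the all-gene median, and 2 of the 118 other high genes lay under the median of the core. The high sets were not matched in level. Array medians ran from 14.17 to 14.21 in the 28 core genes and from 13.40 to 13.46 in the 118 others. The second copies had a median residual SD of 0.20 and the 3 assembly relatives one of 0.24. Values this close to the array's highest readings, 14.61 to 14.72, can be compressed by the array, and how far that narrows the spread of the core genes was not tested.

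**Figure D2:**
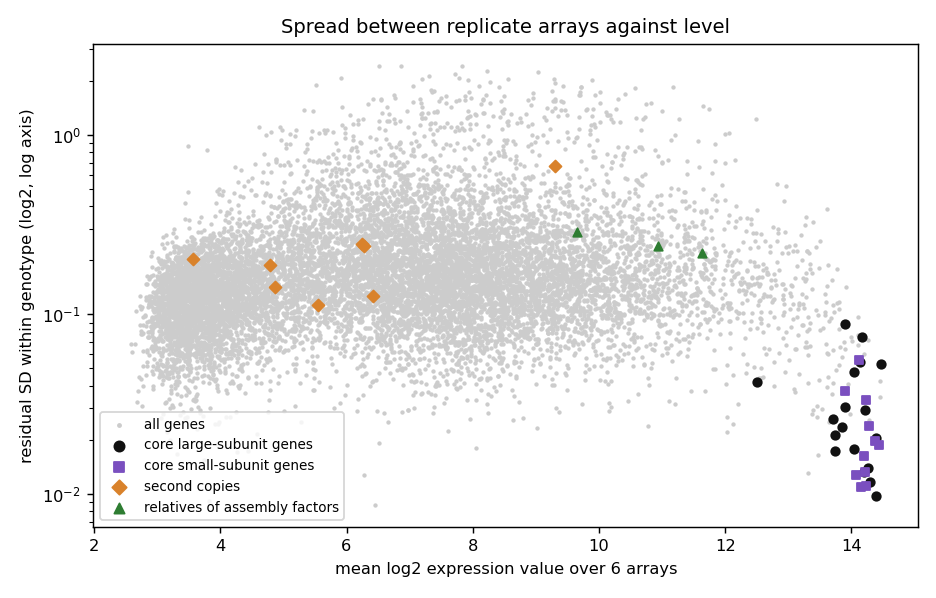
Residual SD within genotypes (log2) against the mean log2 expression value over the 6 arrays, for all genes and for the RP genes by role. Core RP genes lie at the right edge and at the bottom, with a median residual SD of 0.02. That is below most other genes with a mean of at least 13, most of which have lower means than the core genes. Second copies lie at low means with a median of 0.20.

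The comparison of mutant with control asks whether the larvae without normal Kdm4A differ in RP transcripts. No RP gene passed the test. Of 40 genes, 0 were called with limma at an adjusted p under 0.05, against 0.159% of all 11983 genes, so the 0 calls lie near the background. At an unadjusted p under 0.05, limma gave 2 of 40 genes, RpL37-2 and RpS19b, against 5.27% of all genes. With the replicate number as a block 0 of 40 were called too, against 0.818% of all genes, and at an unadjusted p under 0.05 the same 2 genes came out as without it, against 11.2% of all genes. The median difference, mutant minus control, was -0.002 over the 40 genes and -0.006 over all genes. Of the 40, 22 were lower in the mutant by any size, a share close to the 51.8% of all genes. The limma adjusted p of the 40 genes lay between 0.609 and 0.999.

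Core genes differed little in either subunit. The median difference was -0.002 over the 18 core large-subunit genes and 0.006 over the 11 core small-subunit genes. Of the 29 core genes, 15 were higher and 14 lower in the mutant, by any size, and quantile normalization or array weights turned the sign of the large-subunit median, to 0.001 and 0.007. The differences ran from -0.04 for RpL37-1 to 0.10 for RpL27, with 28 of 29 under 0.05 in size, as were 29.9% of all genes. The 95% intervals of the 29 differences stayed between -0.23 and 0.28, and their standard errors lay between 0.07 and 0.09. Those errors come from limma, which pulls each gene's variance toward one shared by all genes, and so are wider than the genes' own spread.

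RpL27, a large-subunit gene, was the only RP gene whose mutant arrays all lay above the control arrays, which held for 4.11% of all genes. It was read at 13.81, 13.78 and 13.77 in mutant arrays and at 13.70, 13.68 and 13.68 in control arrays. The gap was of like size within each number, at 0.10, 0.11 and 0.09. The difference of 0.10 (SE 0.07, 95% interval -0.08 to 0.28) did not pass the test (limma, adjusted p = 0.998, and 0.701 with the replicate block). Being higher in the mutant within all 3 numbers held for 7 RP genes, all core genes, against 14.5% of all genes. Lower within all 3 numbers held for 2 RP genes, against 19.2% of all genes.

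**Figure D3:**
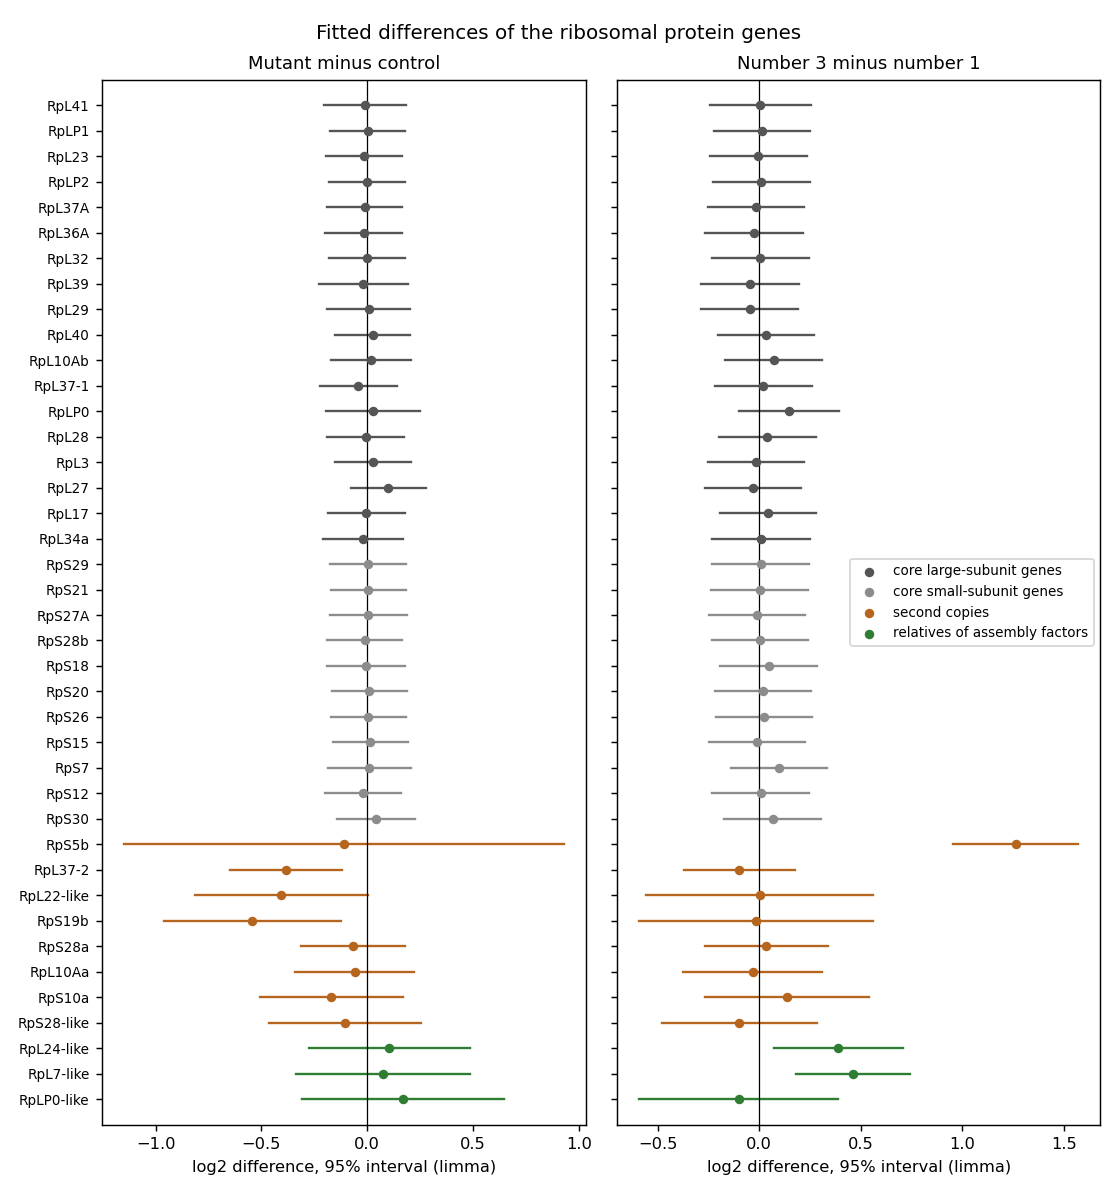
Difference in log2 expression value of each RP gene with its 95% interval from limma, mutant minus control on the left (3 arrays per group) and number 3 minus number 1 on the right (2 arrays per number), coloured by role. Between genotypes, core genes lie within 0.10 of 0 and all 8 second copies lie below 0; between numbers, RpS5b stands alone at 1.26.

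The second copies stood on the low side in the mutant, though none passed the test over all genes. All 8 had a lower mean in the mutant, with a median difference of -0.14, where 51.8% of all genes were lower. The count was 8 of 8 after quantile normalization or median centring, 7 of 8 with array weights and between 6 and 8 of 8 when 1 array was left out. The smallest count, 6 of 8, came without mutant array 2. The size of the median was less settled, at -0.07 with array weights, -0.21 without control array 1, -0.27 without control array 2 and -0.26 without mutant array 3. A filter to the upper 60% of genes by mean kept 4 of the 8, all 4 lower, with a median of -0.39. It dropped RpL10Aa, RpS10a, RpS28a and RpS28-like, the lowest of the 8 by mean. Within numbers 1, 2 and 3 the median differences of the 8 were -0.33, -0.03 and -0.27. Only 1 of the 8, RpL37-2, was lower within all 3 numbers, against 19.2% of all genes. The limma adjusted p of the second copies lay between 0.609 and 0.998.

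RpL37-2, an autosomal copy of the zinc-binding large-subunit protein whose X-linked copy is RpL37-1, was read at 6.27, 6.11 and 6.30 in mutant arrays. Control arrays gave 6.78, 6.50 and 6.55. All mutant arrays thus lay below all control arrays, as for 6.23% of all genes, and RpL37-2 was the only such RP gene. The means were 6.23 ± 0.10 in the mutant and 6.61 ± 0.15 in the control (SD, n = 3 each). The difference was -0.38 (SE 0.11, 95% interval -0.65 to -0.12) and did not pass the test (limma, adjusted p = 0.609, and 0.184 with the replicate block). Its partner RpL37-1 differed by -0.04 (SE 0.08).

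RpS19b, a copy of a small-subunit protein known for expression in germ line cells, was read at 5.84, 6.24 and 5.85 in mutant arrays and 6.70, 6.21 and 6.65 in control arrays. The mutant arrays numbered 1 and 3 were low and the control arrays with those numbers high, while the 2 arrays numbered 2 were alike. Within numbers 1, 2 and 3 the difference was -0.86, 0.02 and -0.79. The means were 5.98 ± 0.23 in the mutant and 6.52 ± 0.27 in the control (SD, n = 3 each). Their difference of -0.54 (SE 0.17, 95% interval -0.96 to -0.12) did not pass the test (limma, adjusted p = 0.724, and 0.379 with the replicate block). With array weights it was -0.32.

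RpL22-like, a copy of a large-subunit protein known for expression in the testis, had the same layout of arrays. It was read at 5.95, 6.38 and 5.89 in mutant arrays and 6.57, 6.24 and 6.63 in control arrays. Within numbers 1, 2 and 3 the difference was -0.62, 0.14 and -0.73, so that number 2 again ran against the other numbers. The mean difference was -0.41 (SE 0.17, 95% interval -0.81 to 0.00; limma, adjusted p = 0.937), and -0.22 with array weights.

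The other second copies differed less. RpS10a, a small-subunit copy, was read at 4.57, 4.78 and 4.76 in mutant arrays and 4.97, 4.59 and 5.05 in control arrays, a difference of -0.17 (SE 0.14). RpS28-like was read near the floor of the array, at 3.69, 3.20 and 3.66 in mutant arrays and 3.71, 3.62 and 3.54 in control arrays. Its lowest array stood at the 4.36th percentile of all genes. RpS28a differed by -0.07 (SE 0.10) and RpL10Aa by -0.06 (SE 0.12), while their core partners RpS28b and RpL10Ab differed by -0.01 (SE 0.07) and 0.02 (SE 0.08).

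Markers of the germ line were read low in these larvae. The 5 measured of 6 listed, vas, bam, aly, can and sa, lay between 2.88 and 4.25 in all arrays. The fly's germ-cell helicase gene vas was read at 3.88, 3.53 and 3.73 in mutant arrays and 3.73, 3.48 and 3.56 in control arrays. The germ-cell differentiation gene bam was read at 3.95, 3.78 and 3.66 in mutant arrays and at 4.05, 4.07 and 4.25 in control arrays, a difference of -0.33. None of the 5 was called, and the part of germ cells in the values of RpS19b, RpL22-like and RpL37-2 was not tested.

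The 3 assembly relatives had means on the other side, with differences of 0.08 (SE 0.17) for RpL7-like, 0.11 (SE 0.16) for RpL24-like and 0.17 (SE 0.20) for RpLP0-like. None passed the test. Without control array 1, only 1 of the 3 was higher in the mutant. RpLP0-like, related to a yeast factor that holds the place of the stalk protein on the immature large subunit, was read at 9.64, 10.19 and 9.39 in mutant arrays and 9.53, 9.59 and 9.59 in control arrays. Mutant array 2 alone stood out.

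The replicate numbers were compared too, because arrays of a number deviated together across all genes, though least for number 2. This comparison holds 2 arrays per number, 1 of each genotype, with genotype in the fit. RpS5b was the only RP gene called for number 3 against number 1, that is 1 of 40, where 8.25% of all genes were called. At an unadjusted p under 0.05, limma gave 3 of 40, RpS5b, RpL7-like and RpL24-like, against 26.4% of all genes. The median difference was 0.007 over the 40 genes and 0.03 over all genes, and quantile normalization or median centring turned the median of the 40 genes to -0.02. For number 2 against number 1, limma called 0 of 40 RP genes and 0% of all genes, and at an unadjusted p under 0.05 it gave 0 of 40 and 11.6% of all genes. For number 3 against number 2 it called 0 of 40, against 0.492% of all genes, and at an unadjusted p under 0.05 it gave 1 of 40, RpS5b, against 16.8% of all genes.

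RpS5b is the autosomal copy of a small-subunit protein whose copy is known in flies for expression in the ovary. It was read at 9.88 in mutant array 3 and 10.20 in control array 3, at 9.06 and 9.09 in the arrays numbered 2, and at 8.79 and 8.77 in the arrays numbered 1, with the mutant first in each pair. The arrays of a number lay close together and the numbers lay apart, and the genotypes overlapped. Number 3 exceeded number 1 by 1.26 (SE 0.12, 95% interval 0.95 to 1.57), which is 2.40-fold, and RpS5b thus rose in number 3 (limma, adjusted p = 0.017). Number 3 exceeded number 2 by 0.97 (SE 0.12), which did not pass (limma, adjusted p = 0.0542). The call against number 1 ended without control array 1 (difference 1.16, adjusted p = 0.0605), without control array 3 (1.10, adjusted p = 0.0921) and in the fit without genotype (adjusted p = 0.06). Between genotypes RpS5b averaged 9.25 ± 0.57 in the mutant and 9.35 ± 0.75 in the control (SD, n = 3 each), a difference of -0.11 (SE 0.43; limma, adjusted p = 0.998). With the replicate block the error of that difference was 0.10 (limma, adjusted p = 0.762).

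RpL7-like, related to a yeast factor of large-subunit assembly, was read at 11.11 and 11.19 in mutant and control arrays numbered 3, against 10.79 and 10.60 in those numbered 1. The arrays numbered 2 gave 11.02 and 10.90. The difference between numbers 3 and 1 was 0.46 (SE 0.11, 95% interval 0.18 to 0.74; limma, adjusted p = 0.0699). RpL24-like, related to the yeast factor Rlp24 of large-subunit assembly, was read at 11.76 and 11.88 in mutant and control arrays numbered 3, against 11.52 and 11.33 in those numbered 1. Its difference was 0.39 (SE 0.13, 95% interval 0.07 to 0.71; limma, adjusted p = 0.126), so it did not pass either, and without control array 3 the difference was 0.22. RpLP0-like had a difference of -0.10 (SE 0.20).

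**Figure D4:**
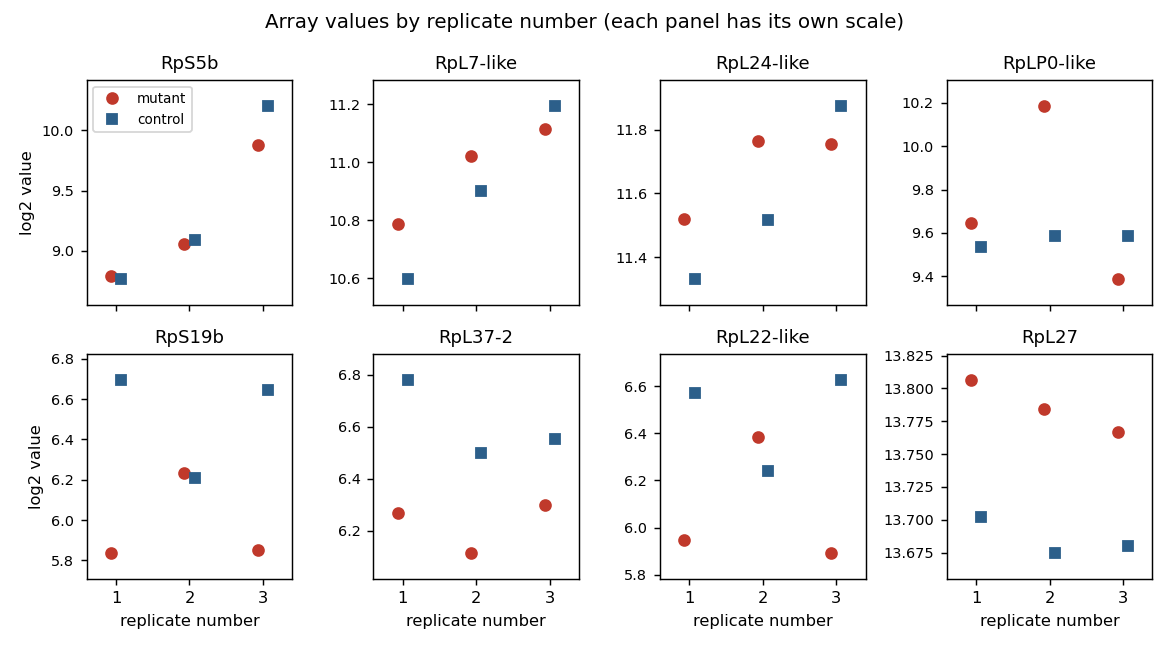
Log2 expression values by replicate number, 1 point per array with mutant and control marked, for RP genes named in the text. RpS5b reaches 9.88 and 10.20 in the arrays numbered 3, whereas RpS19b and RpL22-like separate the genotypes in numbers 1 and 3 and not in number 2.

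Core RP genes differed between numbers 3 and 1 by -0.05 to 0.15, with 28 of 29 under 0.1 in size and RpLP0 (0.15, SE 0.10) the exception. Of the core genes, 11 had both arrays numbered 3 above both numbered 1, and 4 had them below, where such gaps held for 32.8% and 22.2% of all genes. Some other gene lists moved far more between these numbers, and others did not. Medians were 0.01 for fat body markers, 0.08 for gut markers and 0.04 for the 118 other genes with a mean of at least 13. Of 7 measured neuron markers, 5 rose in number 3, nSyb, para, Appl, CadN and futsch, with a list median of 0.86, and nSyb, a synaptic vesicle protein, differed by 0.87. Of 66 cuticle protein genes of the Cpr family, 17 fell in number 3 and 1 rose, with a median of -0.89. Over all genes, 8.25% were called in either direction. These calls hung on few arrays: of the neuron markers, 0 were called without control array 1, without control array 3, without mutant array 3 or in the fit without genotype. The 18 calls of cuticle genes became 7, 1, 8 and 0 in those settings, while all 7 neuron markers stayed higher in number 3 by any size. Calls over all genes, 989 in the main fit, became 126, 60, 139 and 0 there. Cuticle calls were 30 without mutant array 1, and 29 without mutant array 2 or without control array 2. With the trended robust prior and no array left out they were 7, while 1036 of all genes were called. The part of larval age, tissue make-up or the actin gap in the values of RpS5b was not tested.

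Genes that make or serve ribosomes were set beside the RP genes. Of 23 listed ribosome biogenesis genes, which code for nucleolar and assembly proteins, 21 were measured and 0 were called between genotypes. By any size, 20 of 21 had a higher mean in the mutant, where 51.8% of all genes had a lower one. The median difference was 0.16, against 0.002 over the 29 core RP genes, which were read at far higher levels. The array medians of the list were 8.91, 9.29 and 8.48 in mutant arrays and 8.84, 8.85 and 8.80 in control arrays. The list was thus highest in mutant array 2 and lowest in mutant array 3, and without mutant array 2 the count was 14 of 21 with a median of 0.03. Without mutant array 3 it was 21 of 21, with a median of 0.34. Ns3, a GTPase related to nucleostemin, had the smallest p between genotypes, at a difference of 0.32. RpLP0-like, too, was highest in mutant array 2.

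Between numbers 3 and 1 the biogenesis genes had a median difference of -0.30, against 0.007 over the RP genes. By any size, 20 of 21 were lower in number 3, where 5367 of all 11983 genes were. None of the 21 was called. The nucleolar genes wcd and Surf6 differed by -0.55 and -0.51, and Non1, a nucleolar GTPase, was the gene on the other side at 0.51. Without mutant array 3 the count was 13 of 21, with a median of -0.07, and without control array 3 the median was -0.55. The list of RNA polymerase I, which transcribes ribosomal RNA, held its subunits and factors that work with it. The 4 measured genes of that list were lower in number 3 as well, with a median of -0.32 and none called. Their median was -0.50 without control array 3 and -0.19 without mutant array 3.

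Initiation factors, which load the ribosome onto messenger RNA, were measured for 17 of 19 genes, with a median difference of 0.06 between mutant and control. Of these, 13 were higher and 4 lower in the mutant, none was called, and without control array 1 the counts were 7 higher and 10 lower, with a median of -0.03. With array weights they were 8 and 9. Between numbers 3 and 1 their median was 0.17. For elongation factors 3 of 7 were measured, with a median of 0.09 between genotypes, 0.04 both without control array 1 and with array weights, and none called. Rack1, a scaffold protein bound to the small subunit, was read at 13.53, 13.65 and 13.66 in mutant arrays and 13.36, 13.65 and 13.66 in control arrays, so its arrays numbered 1 were the lowest, as for RpLP0.

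**Figure D5:**
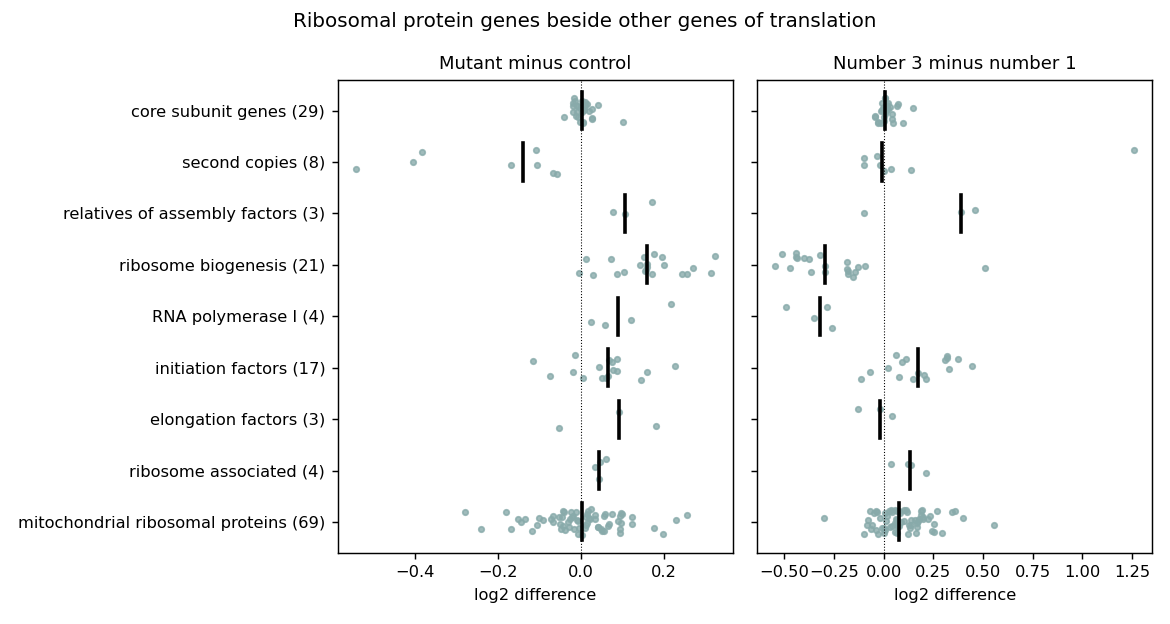
Differences in log2 expression value, mutant minus control and number 3 minus number 1, of single genes in the RP classes and in the other translation lists, with points for genes and black bars for list medians. The core RP genes form a tight group at 0 in both comparisons, and the biogenesis genes lie mostly above 0 between genotypes (median 0.16, and 0.03 without mutant array 2) and below 0 between numbers (median -0.30).

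Second probe sets existed for 4 of the 40 genes. A second highly read probe set of RpS29 had a mean of 14.18 and differed between mutant and control by -0.04, as against 0.00 in the one kept. Other probe sets of RpS29, RpL3, RpS30 and RpS7 had means between 3.56 and 8.96, and none of these was called. Between mutant and control their differences ran from -0.31 (SE 0.19) for RpL3 to 0.23 (SE 0.17) for RpS30. The probe sets kept for these 2 genes differed by 0.03 and 0.04. RpL3, a large-subunit gene, had a second probe set with a mean of 7.44 and a difference of 0.54 between numbers 3 and 1 (SE 0.16; limma over all probe sets, adjusted p = 0.116), against -0.02 in the probe set kept. Of the 40 kept probe sets, 13 have names ending in _s_at, by which the maker marks probe sets that can bind more than 1 transcript, and all 13 are core genes. Whether probes of a second copy also bind its partner's transcript was not tested, so values of such pairs are less certain.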

How the data were processed

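Total RNA of 3 mutant and 3 control pools of larvae was hybridised to Affymetrix arrays. The deposited log2 values came from the authors' RMA run, per the submitters' processing notes. The RMA version is not given in the sources here. RMA brings all arrays to nearly 1 distribution, so a shift common to most genes cannot be seen. The arrays' small number limits the precision.

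After leaving out 183 control probe sets of 18952, 13647 probe sets name 1 gene, 402 several, and 4720 are not in the platform's table of 2016. All 40 members matched Release 6 of the annotation by gene ID. Comparisons used limma 3.58.1 in R 4.3.3, checked on simulated data, two-sided with Benjamini-Hochberg adjustment over 11983 genes.

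Same-numbered arrays deviated together (correlations over genes of 0.684, 0.151 and 0.756 for numbers 1, 2 and 3, with the titles' numbers as source), so numbers were taken as pairs. The pairing of number 2 is the weakest, since mutant array 2 correlated more with control array 1 (0.354) than with its own number. Any member could be named, with full values for called genes, the largest differences and gene copies, and in other lists the genes of smallest p, apart from the Rack1, vas and nSyb examples. The members and lists were chosen with earlier results of these data known. Other settings tried were quantile normalization of the probe sets, centring each array on its median, keeping the upper 60% of genes by mean, averaging the probe sets per gene, array weights, a trended and robust prior, the replicate block, a fit without genotype and leaving out each array.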

Additional observations from a re-analysis of the deposited data

How the results depend on the processing

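Between mutant and control, 0 of 40 RP genes were called under all 13 alternatives run, and the replicate block, with 0 called and a median of -0.002, changed no call of an RP gene although it moved the calls over all genes to 98, against 19 without it. Leaving out 1 array gave medians of -0.0084 to 0.0095, the highest without control array 3. For number 3 against number 1, the count of called RP genes was 2 with the trended robust prior, which added RpL7-like, 0 in the fit without genotype, and 0 to 1 with 1 array left out. The median was -0.019 after quantile normalization, -0.017 after median centring and 0.00041 to 0.026 with 1 array left out. For number 2 against number 1, it was -0.018 after quantile normalization, -0.031 after median centring and -0.014 to 0.012 with 1 array left out. For number 3 against number 2, the count was 1 (RpS5b) after median centring, with the trended robust prior and with array weights, and 0 to 1 with 1 array left out, with medians of -0.00049 to 0.026. Counts over all genes for number 3 against number 1 were 989, and 126 without control array 1, 60 without control array 3 and 0 without genotype in the fit. In number 3 against number 2 they were 59, and 97 after median centring, 107 with the trended robust prior and 80 with array weights. They were 230 without mutant array 1 or control array 1, 51 without control array 3, 5 without mutant array 2 and 0 without genotype in the fit. The causes were not tested. The filter to the upper 60% of genes kept 36 of the 40 genes, with 4 of the 8 second copies among them, and dropped Kdm4A. Low signal limits RpS28-like most, and nearness to the highest readings limits the core genes.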

Other observations

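The mitochondrial ribosome has its own proteins, coded by separate nuclear genes. The 69 measured genes of this kind were read between 8.70 and 11.34, and their median difference between mutant and control was 0.003, with 35 higher and 34 lower and none called. The sign of that median turned with the array left out, to -0.07 without mutant array 2. At an unadjusted p under 0.05 limma gave 2 of 69, against 5.27% of all genes, so the count is no more than the background. Between numbers 3 and 1 their median was 0.07, with 0.0072 without control array 3, 0.04 without mutant array 1, 0.14 without control array 1 and 0.15 without mutant array 3. Of the 69, mRpS5 alone was called, higher in number 3 by 0.56 (SE 0.10; limma, adjusted p = 0.0395), against 8.25% of all genes. No gene of the list was called without control array 1, control array 3, mutant array 1 or mutant array 3, or in the fit without genotype. Their median residual SD was 0.11, against 0.02 for the core cytoplasmic genes with a mean of at least 13.

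Of the regulators of growth that were measured, 6 of 10, none was called between numbers 3 and 1. All 6 were higher in number 3 by any size, with a median of 0.31, where 6616 of all 11983 genes were higher. Without mutant array 3 the count was 5 of 6. Mnt, a repressor that opposes Myc, differed by 0.52 (SE 0.15), and Maf1, a repressor of RNA polymerase III, by 0.37 (SE 0.11). Between genotypes the list median was -0.02, and its sign turned without control array 3 (0.07) and without mutant array 1 (0.04), while it was -0.11 without mutant array 3.

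Probe sets that name a member and another gene were kept out of the values above. One that names RpL28 and a small nucleolar RNA was read at 6.84, 7.04 and 6.49 in mutant arrays and 6.53, 6.53 and 6.44 in control arrays, a difference of 0.29 (SE 0.14), which did not pass. Those that name RpLP0 with euc and RpL7-like with CG34164 differed by -0.16 (SE 0.12) and 0.09 (SE 0.08).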
